A study of Mus musculus with 10 samples.

Results

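Expanded Igk clonotypes were the rearranged immunoglobulin kappa light chains that held 100 or more reads in a library. A clonotype is 1 entry of a deposited table, defined by its V gene, its J gene and the amino acids of CDR3, the loop of the light chain that spans the V-J joint and contacts antigen. By this rule 1943 of 44103 listed clonotypes were expanded over 6 libraries, and the read counts themselves chose them. The libraries came from sorted peritoneal cavity B cells of C57BL/6 mice aged 6 to 8 weeks, with 2 libraries in each of 3 groups. WT B-1a and WT B-2 cells came from wild-type mice, and Igll1-/- B-1a cells from Igll1 knockout mice. No Igll1-/- B-2 library was analysed here. Genomic DNA was the template, so each rearranged allele could be read whether or not it made a protein. The labels do not say whether replicates came from separate mice, so no p-value is known to measure a spread between mice. Permutation p-values rest on these libraries, and edgeR p-values for V gene counts between groups rest on counting error, as given below.

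A kappa light chain gene is made by joining 1 of many V genes to 1 of a few J genes, and a cell can join a V gene farther upstream to a J gene farther downstream in a later round. Igll1 encodes a part of the surrogate light chain, which pairs with the heavy chain in the pre-B cell receptor before the kappa locus is rearranged. B-1a cells are long-lived B cells of the body cavities that make natural antibodies, and B-2 cells are the conventional B cells. Among B-1a cells, light chains on IGKV4-91, also called VK4, are known to pair with VH12 and those on IGKV14-126 with VH11 in receptors for phosphatidylcholine. Light chains on IGKV7-33 are known from receptors for phosphorylcholine.

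The CDR3 sequences of the largest expanded clonotypes are shown first, because much of what follows turns on them. The opening 3 lie on the V genes known from B-1a receptors.
IGKV4-91 with IGKJ5: QQGSSIPLT
IGKV14-126 with IGKJ2: LQHGESPYT
IGKV7-33 with IGKJ5: AQFYSYPLT
The next 5 were expanded in each of the 6 libraries and had the highest lowest read count among such clonotypes.
IGKV8-30 with IGKJ5: QQYYSYPLT
IGKV4-53 with IGKJ5: QQWSSYPLT
IGKV15-103 with IGKJ5: QQGQSYPLT
IGKV1-110 with IGKJ5: SQSTHVPLT
IGKV1-117 with IGKJ5: FQGSHVPLT
The last 6 were each among the 5 clonotypes with most reads in at least 1 library.
IGKV3-7 with IGKJ1, tryptophan form: QHSWEIPWT
IGKV3-7 with IGKJ1, arginine form: QHSWEIPRT
IGKV4-57-1 with IGKJ5: QQYSGYPLT
IGKV1-110 with IGKJ1: SQSTHVPWT
IGKV9-128 with IGKJ1: LQHASSPWT
IGKV9-128 with IGKJ5: LQHASSPLT

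Expanded clonotypes numbered 309 and 279 in WT B-1a, 218 and 261 in Igll1-/- B-1a, and 447 and 429 in WT B-2 cells. They were 3.76% to 5.17% of the clonotypes of a library. They held 86.7% and 85.4% of the reads in WT B-1a, 86.9% and 89.2% in Igll1-/- B-1a, and 84.6% and 83.9% in WT B-2 libraries. The libraries held 214000 to 288396 reads, and the Wilson 95% interval of the lowest of these shares ran from 83.8% to 84.0%. WT B-2 cells thus had the most expanded clonotypes, at 438 ± 12.7 (SD, n = 2), against 294 ± 21.2 in WT B-1a and 239.5 ± 30.4 in Igll1-/- B-1a cells, and the number in each WT B-2 library was above that in each B-1a library. These numbers rest on the reads that chose the clonotypes and were given no test. DNA was amplified without molecular identifiers, so the number of cells of a clone and the amplification of its DNA cannot be told apart in a read count. Intervals and floors cover counting error only.

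Reads were spread over more clonotypes in B-2 than in B-1a cells. The 36 and 33 largest clonotypes held 50% of the reads in WT B-1a libraries, and 25 and 26 did so in Igll1-/- B-1a libraries. In the WT B-2 libraries 77 and 76 clonotypes were needed. Clonotypes of 1000 reads or more numbered 44 to 55 in each of the 6 libraries, but held 43.5% and 43.8% of the reads in WT B-2 against 55.5% to 63.5% in the B-1a libraries. The reads of the median expanded clonotype lay between 259 and 334. At the minimum itself, 11 to 27 clonotypes per library held 90 to 99 reads and 10 to 24 held 100 to 110 reads. In WT B-1a replicate 1, for example, QQSNSWLT on IGKV5-48 lay just inside with 100 reads, and QQYWSTPPWT, listed on IGKV13-84 or IGKV13-85, lay just outside with 99 reads.

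**Figure D1:**
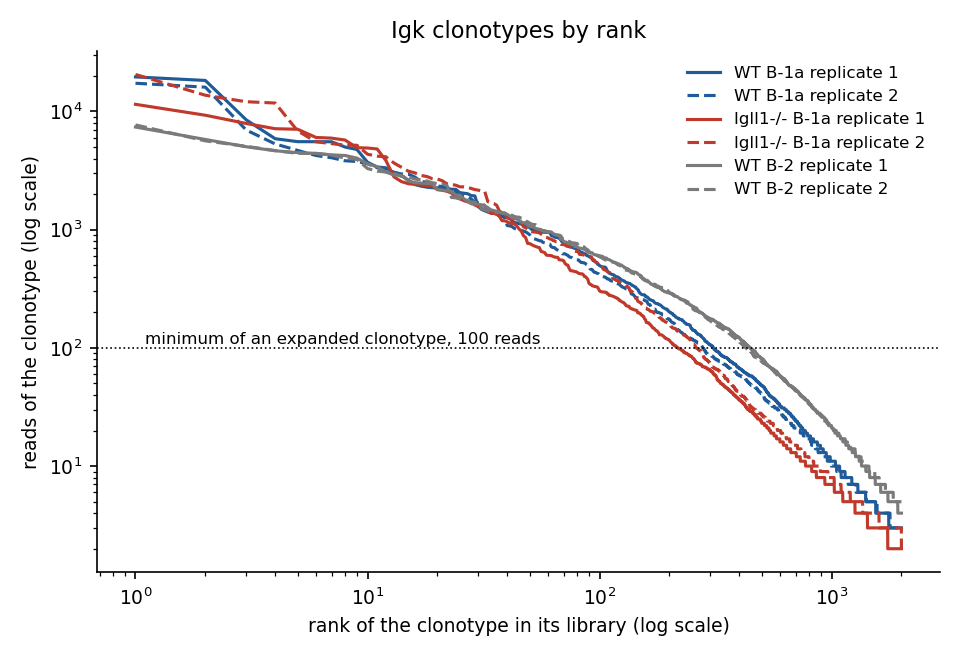
Reads of a clonotype against its rank in the library for the largest clonotypes of each library, both axes on a log scale, with 1 line per library and a dotted line at 100 reads. The lines of both WT B-2 libraries start below the 4 B-1a lines and cross the dotted line at a higher rank.

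Clonotypes on the V genes known from B-1a receptors for phosphatidylcholine led both WT B-1a libraries. The heavy chain partner and the antigen of these light chains were not read. QQGSSIPLT on IGKV4-91 held 7.12% and 6.55% of the reads in WT B-1a, 0.642% and 2.50% in Igll1-/- B-1a, and 0.848% and 0.650% in WT B-2 libraries. Both WT B-1a values lay above the other 4, while the Igll1-/- B-1a replicates lay on either side of the WT B-2 libraries. LQHGESPYT on IGKV14-126 held 6.65% and 7.07% of the reads in WT B-1a libraries. In Igll1-/- B-1a libraries it held 0.0575% and 0.0503%, with 123 and 138 reads, and in WT B-2 libraries 0.355% and 0.317%. The Igll1-/- B-1a values were the lowest of the 3 groups and the groups did not overlap. AQFYSYPLT on IGKV7-33 showed the same order, with 1.23% and 1.73% in WT B-1a, 0.00794% and 0.0485% in Igll1-/- B-1a, and 0.397% and 0.485% in WT B-2 libraries. With 17 reads in Igll1-/- B-1a replicate 1, it was not expanded there.

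Other members of the same V genes followed this pattern in part. QQGSSIPYT, on IGKV4-91 and IGKJ2, held 1.21% of the reads in each WT B-1a library, 0.00841% and 0.0281% in Igll1-/- B-1a, and 0.113% and 0.131% in WT B-2 libraries. LQHGESPWT, on IGKV14-126 and IGKJ1, held 0.953% and 0.955% in WT B-1a libraries and at most 0.0981% in the other 4. LQHGESPLT, on IGKV14-126 and IGKJ5, differed less, with 0.409% and 0.788% in WT B-1a against 0.439% and 0.318% in WT B-2 libraries. In Igll1-/- B-1a replicate 1 the largest IGKV4-91 clonotype was QQGSSIPFT on IGKJ2, with 1576 reads, a V gene, J gene and CDR3 that held 8 to 193 reads in the other 5 libraries.

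The largest clonotypes of the Igll1-/- B-1a libraries differed between the replicates. QHSWEIPWT on IGKV3-7 held 20562 reads, 7.50%, in Igll1-/- B-1a replicate 2 and 335 reads in replicate 1, against 218 to 416 in the 4 wild-type libraries. QHSWEIPRT, which differs from it at 1 residue, held 7925 reads, 3.70%, in Igll1-/- B-1a replicate 1 and 68 to 228 reads in the other 5. QQYSGYPLT on IGKV4-57-1 held 9294 reads in Igll1-/- B-1a replicate 1 and 44 in replicate 2, while both WT B-1a libraries held 5545 and 3777. QQGQSYPFT on IGKV15-103 held 3123 reads in Igll1-/- B-1a replicate 2 and 2 to 18 reads elsewhere. Each of these clonotypes was high in 1 of the 2 knockout libraries, so a group mean describes neither replicate. SQSTHVPWT on IGKV1-110 was high in both, with 4817 and 12088 reads in Igll1-/- B-1a libraries against 1859 to 2199 in the others. QQWSSYPLT on IGKV4-53 held 7146 and 13719 reads in Igll1-/- B-1a libraries against 4037 to 5882 in the 4 wild-type libraries.

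Several clonotypes were large in all 6 libraries. QQYYSYPLT on IGKV8-30 held 3.09% and 2.17% of the reads in WT B-1a, 2.78% and 4.30% in Igll1-/- B-1a, and 1.74% and 1.76% in WT B-2 libraries, with each B-1a library above both WT B-2 libraries. FQGSHVPLT on IGKV1-117 had the opposite order, with 0.787% to 1.35% in the 4 B-1a libraries and 2.01% and 1.62% in WT B-2 libraries. SQSTHVPLT on IGKV1-110 held 0.832% and 1.25% in WT B-1a, 3.30% and 1.23% in Igll1-/- B-1a, and 1.398% and 1.53% in WT B-2 libraries, and here the groups overlapped in part. QQHYSTPLT on IGKV8-24 was the largest clonotype of both WT B-2 libraries, with 2.56% and 2.67%. It held 1.66% to 2.82% in 3 of the B-1a libraries and 0.774% in Igll1-/- B-1a replicate 2.

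**Figure D2:**
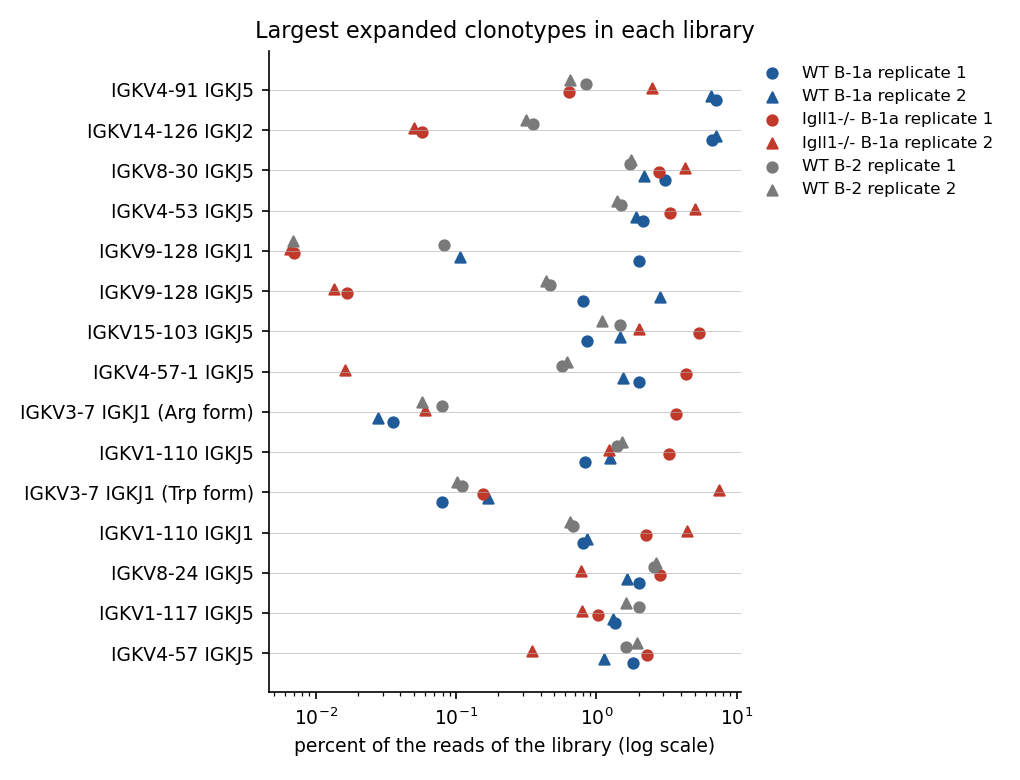
Percent of the reads of the library, on a log scale, for 15 of the largest expanded clonotypes, named by V and J gene; circles are replicate 1 and triangles replicate 2. The IGKV14-126 IGKJ2 clonotype lies near 7% in both WT B-1a libraries and at 0.0503% to 0.355% in the other 4, and the IGKV3-7 and IGKV4-57-1 clonotypes separate the 2 Igll1-/- B-1a libraries.

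Expanded clonotypes used 88 V genes, 53 of them in all 6 libraries, of the 103 V genes in the whole tables. A library used 59 to 82 of them, with 59 and 70 in Igll1-/- B-1a, 76 and 71 in WT B-1a, and 82 and 78 in WT B-2 cells. The IGKV4 family, the largest of the kappa families, held 565 expanded clonotypes, which were 28.0% ± 2.07 (SD, n = 2) of those in WT B-1a, 25.8% ± 4.45 in Igll1-/- B-1a and 31.7% ± 2.31 in WT B-2 cells. IGKV1 followed with 219, IGKV8 with 218 and IGKV3 with 141. The single V gene with most expanded clonotypes was IGKV1-110, with 12 to 18 per library, ahead of IGKV8-30 with 9 to 14. A further 145 expanded clonotypes were listed with several V genes and were counted to none. The V primers were a degenerate primer and added primers for segments common in B-1a cells, IGKV4-91 among them, so a share depends on the primer as well as on the cells.

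The number of expanded clonotypes per V gene was compared between groups, with each clonotype counted once, as the rule did not use the V gene. The 64 V genes with at least 10 expanded clonotypes over the 6 libraries held 1708 of them, and another 24 V genes with 90 expanded clonotypes were not tested. Between Igll1-/- and WT B-1a cells, the quasi-likelihood test of edgeR, with p-values adjusted by Benjamini-Hochberg, called 0 of 64 V genes, a background of 0%. At an unadjusted p under 0.05 it gave 3, and DESeq2 called 0 with 2 unadjusted. Between Igll1-/- B-1a and WT B-2 cells edgeR also called 0, with 5 at an unadjusted p under 0.05, and DESeq2 called 2. Between WT B-1a and WT B-2 cells edgeR called 1 V gene, 1.56% of those tested, and it was IGKV4-91. The first and last of these comparisons share the WT B-1a libraries, and the last 2 share the WT B-2 libraries. The spread that edgeR fitted between replicates, a quasi-likelihood dispersion, was under 1 for all 64 V genes (0.122 to 0.76). A value under 1 is below counting error, so these edgeR p-values were set by counting error, with clonotypes as the units. They do not measure the spread between libraries.

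IGKV4-91 carried 14 and 12 expanded clonotypes in WT B-1a, 6 and 7 in Igll1-/- B-1a, and 6 and 6 in WT B-2 libraries. Each WT B-1a count lay above the other 4. As a share of the expanded clonotypes these were 4.42% ± 0.162 (SD, n = 2), 2.72% ± 0.0497 and 1.37% ± 0.0398. The difference between WT B-1a and WT B-2 cells was 1.66 on the log2 scale (SE 0.50, adjusted p = 0.0280 by edgeR). Igll1-/- B-1a cells lay 0.97 above WT B-2 cells (SE 0.58, adjusted p = 0.519 by edgeR) and fell by 0.70 against WT B-1a cells (SE 0.49, adjusted p = 0.700 by edgeR), so neither difference passed the test. The call did not hold when any 1 of the 4 WT libraries was left out (adjusted p 0.173 to 0.404 by edgeR).

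Many of these IGKV4-91 clonotypes resembled a larger one. Here an expanded clonotype was called near-identical when another of the same V and J gene in the same library, with at least 10 times its reads, differed from it by at most 1 amino acid. In WT B-1a libraries 8 of 14 and 6 of 12 IGKV4-91 clonotypes were near-identical, and 6 were left in each. The Igll1-/- B-1a libraries then held 6 and 3, and the WT B-2 libraries 3 and 6, so the groups overlapped. Without near-identical clonotypes edgeR called 0 V genes between WT B-1a and WT B-2 cells (lowest adjusted p = 0.993, 1 V gene at an unadjusted p under 0.05). Over all V genes, 190 expanded clonotypes were near-identical to a larger one, 7.46% to 13.4% of a library. Whether they were separate cells or copies with an altered base was not tested.

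IGKV15-103 carried 11 and 9 expanded clonotypes in Igll1-/- B-1a libraries, 5 and 6 in WT B-1a and 6 and 5 in WT B-2 libraries. Both knockout counts were above the other 4, and 1 of them was near-identical to a larger clonotype. The shares were 4.25% ± 1.13 (SD, n = 2), 1.88% ± 0.376 and 1.25% ± 0.125. The difference was 1.70 on the log2 scale against WT B-2 cells (SE 0.54, adjusted p = 0.0627 by edgeR) and 1.14 against WT B-1a cells (SE 0.54, adjusted p = 0.619 by edgeR). DESeq2 called it against WT B-2 cells. Of its clonotypes, QQGQSYPLT with IGKJ5 was expanded in all 6 libraries, and so were QQGQSYPWT with IGKJ1 and QQGQSYPYT with IGKJ2.

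IGKV3-7 carried 5 and 14 expanded clonotypes in Igll1-/- B-1a, 7 and 5 in WT B-1a and 5 and 4 in WT B-2 libraries. The high value came from replicate 2, where 11 of the 14 were near-identical to a larger clonotype, which left 3. The log2 difference from WT B-2 cells was 1.91 (SE 0.58, adjusted p = 0.0760 by edgeR). DESeq2 called it, as it did IGKV15-103. In the same library 65 listed clonotypes lay within 1 amino acid of QHSWEIPWT, with 2660 reads in all, 12.9% of its own.

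The other V genes followed by rule did not pass the test in any of the 3 comparisons. IGKV14-126 carried 6 and 8 expanded clonotypes in WT B-1a, 2 and 3 in Igll1-/- B-1a, and 5 and 6 in WT B-2 libraries. On this gene, knockout libraries held the fewest, and WT B-1a and WT B-2 libraries met at 6. IGKV1-110 carried 12 and 13, then 15 and 13, then 18 and 13, in the same order of groups. IGKV9-128 carried 4 and 4 in WT B-1a, 0 and 1 in Igll1-/- B-1a, and 4 and 5 in WT B-2 libraries, and 0 of 218 allows a share of up to 1.38%. IGKV7-33 carried 1 or 2 in every library and was below the filter. Between Igll1-/- and WT B-1a cells the log2 differences fell by 1.16 for IGKV14-126 and 2.50 for IGKV9-128, with SEs of 0.75 and 1.53. At a minimum of 50 reads IGKV14-126 was called lower in Igll1-/- than in WT B-1a cells (adjusted p = 0.0016 by edgeR). Its expanded clonotypes held 8.69% of the reads in WT B-1a, 0.209% in Igll1-/- B-1a and 0.926% in WT B-2 cells on average. With reads summed per V gene it was called in all 3 comparisons, but reads also chose the clonotypes.

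**Figure D3:**
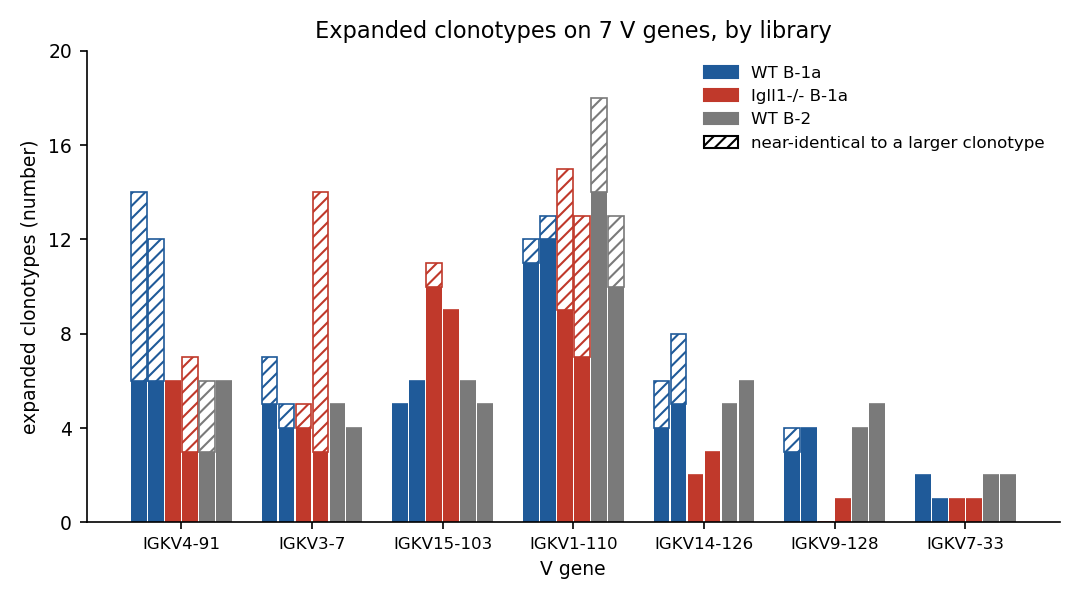
Number of expanded clonotypes on 7 V genes in each library, with the bars of replicate 1 and replicate 2 side by side in the colour of the group; the hatched part is near-identical to a larger clonotype of the same V and J gene. The WT B-1a bars of IGKV4-91 reach 14 and 12 but 6 without the hatched part, and the IGKV3-7 bar of Igll1-/- B-1a replicate 2 falls from 14 to 3.

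Counted by clonotype, J gene use set WT B-1a cells apart from both other groups. Among expanded clonotypes with 1 J gene, IGKJ1, the J gene nearest to the V genes, was used by 71 of 308 and 57 of 278 in WT B-1a, 61 of 217 and 93 of 259 in Igll1-/- B-1a, and 131 of 444 and 130 of 427 in WT B-2 libraries. The shares were 21.8% ± 1.80 (SD, n = 2), 32.0% ± 5.51 and 30.0% ± 0.665, and both WT B-1a libraries lay below the other 4. IGKJ5, the J gene farthest from the V genes, was used by 54.1% ± 0.187 in WT B-1a, 43.8% ± 1.90 in Igll1-/- B-1a and 46.2% ± 1.60 in WT B-2 cells, with both WT B-1a libraries above the other 4. IGKJ2 was used by 20.8% to 25.5% and the groups overlapped. Libraries of 2 against 2 cannot reach a p below 0.333 in an exact two-sided permutation test, and that was the p for IGKJ1 and IGKJ5 between WT B-1a and each other group. Of the measures of V, J and CDR3 use that were compared, 12 in each of 3 pairs of groups, none could therefore pass. Counted by the reads of expanded clonotypes, IGKJ5 did not set WT B-1a cells apart. It held 63.04% and 65.24% in WT B-1a, 63.91% and 53.58% in Igll1-/- B-1a, and 63.23% and 63.70% in WT B-2 libraries. IGKJ1 by reads was still lowest in WT B-1a libraries, at 15.6% and 11.4% against 17.5% to 29.2% in the other 4.

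IGKJ4 was rare and IGKJ3 absent. In all, 7 expanded clonotypes lay on IGKJ4. WT B-1a libraries held 1 each, the same LQHGESPFT on IGKV14-126, with 203 and 263 reads. Igll1-/- B-1a replicate 1 held 3, among them SQSTHVPFT on IGKV1-110 with 553 reads, and replicate 2 held 2. WT B-2 libraries held 0 of 444 and 0 of 427, which allows shares of up to 0.676% and 0.703%. No expanded clonotype lay on IGKJ3, which is known as a segment that is not functional in mice.

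The position of the V gene was read from the number in its name, which runs from low beside the J genes to high at the far end. V genes numbered 91 or more, called distal here, made up 36.2% and 38.9% of expanded clonotypes in WT B-1a, 38.0% and 38.2% in Igll1-/- B-1a, and 29.3% and 31.4% in WT B-2 libraries. Each of the 4 B-1a libraries lay above both WT B-2 libraries. V genes numbered 41 to 90, called middle, were higher in WT B-2 libraries, at 40.2% and 38.7%, than in B-1a libraries, at 28.2% to 34.1%. Those numbered 1 to 40, called proximal, differed little, at 29.2% ± 0.582 (SD, n = 2), 31.0% ± 3.76 and 30.2% ± 0.449 in the order used above. The exact permutation p was 0.333, the smallest possible, for distal and middle V genes between either B-1a group and WT B-2 cells.

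Nearly all expanded clonotypes could encode a protein. By the deposited calls, 12 and 7 were unproductive in WT B-1a, 4 and 6 in Igll1-/- B-1a, and 9 and 14 in WT B-2 libraries. The productive shares were 96.8% ± 0.972 (SD, n = 2), 97.9% ± 0.328 and 97.4% ± 0.884, and the WT B-2 libraries overlapped both B-1a groups. Of the 52 unproductive expanded clonotypes, 18 lay on IGKV9-128, 21 had a stop codon in CDR3 and 13 had neither. All 18 expanded clonotypes of IGKV9-128 were unproductive. They included LQHASSPWT, with 5554 reads in WT B-1a replicate 1 and 261 in replicate 2, and LQHASSPLT, with 2194 and 6966. Both had 15 to 37 reads in the Igll1-/- B-1a libraries. In WT B-2 libraries LQHASSPLT had 1348 and 1251 reads. Unproductive clonotypes held 3.38% of the reads in each WT B-1a library and 0.463% to 1.86% in the others.

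The largest unproductive clonotypes of the knockout cells were in replicate 1. A CDR3 of 27 residues with stop codons, on IGKV8-30 and IGKJ5, held 2551 reads there, and a CDR3 of 8 residues with a stop codon on IGKV15-103 held 1190. The functional call belongs to 1 read that stands for the clonotype, and of 433 clonotypes expanded in more than 1 library 8 had calls that differed. One of these was LQHGESPYT on IGKV14-126, listed as unproductive in WT B-2 replicate 2 only.

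CDR3 loops of expanded clonotypes were of nearly 1 length. In all, 1480 of the 1943 had 9 amino acids, 72.0% to 80.1% of a library. The mean length of productive expanded clonotypes was 8.95 ± 0.0195 (SD, n = 2) residues in WT B-1a, 8.96 ± 0.00148 in Igll1-/- B-1a and 8.94 ± 0.0124 in WT B-2 cells. The shortest had 6 residues. Among 565 distinct CDR3 sequences, 60 occurred on more than 1 V gene and QQWSSNPLT occurred on 4, all of the IGKV4 family. The tables listed this CDR3 with IGKJ5 under 2 V genes jointly, IGKV4-59 or IGKV4-68, in 5 libraries. In WT B-2 replicate 1 it was listed under IGKV4-68 alone, with 4483 reads and an identity of 86.1% to the germline V gene against 100% elsewhere, so it was counted there as a separate clonotype.

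Expanded clonotypes were then set against the 42160 other clonotypes of the same libraries, of which 3328 to 5064 per library had 1 read. Whether these others included copies of larger clonotypes with an altered base was not tested, so the measures below may depend on the read count. Measures other than the read count were compared within each library with an exact two-sided sign-flip permutation test over the 6 libraries. Its smallest p is 0.03125, and the adjusted p over 12 measures was then 0.0469. Each measure that passed stood at this smallest p, so its adjusted p depends on how many other measures did so too. Among them were the CDR3 ending, added after the values had been seen, and the middle and distal V shares, which are parts of a single total. The direction in the 6 libraries and the size of a difference therefore tell more than the adjusted p. The productive share was higher among expanded clonotypes in 6 of 6 libraries, at 97.4% ± 0.789 (SD, n = 6) against 86.8% ± 0.867, a difference of 10.5 percentage points ± 1.06 (exact permutation test, adjusted p = 0.0469). Against other clonotypes of 10 to 99 reads the difference was 4.04 points. Identity to the germline V gene was 99.8% against 93.2%, higher in 6 of 6 libraries (exact permutation test, adjusted p = 0.0469), and 1.73 points higher against clonotypes of 10 to 99 reads. An identity of 100% was listed for 85.8% to 89.3% of the expanded clonotypes of a library and 3.26% to 6.36% of the others.

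CDR3 of expanded clonotypes also differed from that of the others. The mean length was 8.95 against 9.62 residues, lower in 6 of 6 libraries (exact permutation test, adjusted p = 0.0469). Without clonotypes of 1 read the difference was -0.0508 residues. The share with 9 amino acids, 76.6% against 75.6%, did not pass (exact permutation test, adjusted p = 0.525). CDR3 ended in the 2 residues that the germline J gene gives in 66.5% of expanded and 59.9% of other clonotypes, higher in 6 of 6 libraries (exact permutation test, adjusted p = 0.0469). These residues were taken as tryptophan-threonine for IGKJ1, tyrosine-threonine for IGKJ2, phenylalanine-threonine for IGKJ4 and leucine-threonine for IGKJ5, a measure added after the values had been seen. By group it was 68.5% ± 3.27 (SD, n = 2) in WT B-1a, 67.3% ± 0.669 in Igll1-/- B-1a and 63.6% ± 0.782 in WT B-2 cells, and each B-1a library lay above both WT B-2 libraries.

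J genes and V positions differed between expanded and other clonotypes in part. IGKJ4 made up 0.473% of expanded and 1.27% of other clonotypes, lower in 6 of 6 libraries (exact permutation test, adjusted p = 0.0469). IGKJ1 made up 27.9% against 24.6%, higher in 6 of 6 libraries (exact permutation test, adjusted p = 0.0469). In WT B-1a libraries that difference was 0.132 and 0.537 points, and in the others 3.08 to 7.41. It turned to -3.61 points against other clonotypes of 10 to 99 reads and to -10.8 when each clonotype was weighted by its reads. Middle V genes were higher, at 34.5% against 30.2%, and distal V genes lower, at 35.3% against 39.7%, each in 6 of 6 libraries (exact permutation test, adjusted p = 0.0469). Weighted by reads, these differences turned to -3.72 and 2.91 points. IGKJ2, IGKJ5 and proximal V genes did not pass (exact permutation test, adjusted p = 0.852, 0.458 and 0.938).

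**Figure D4:**
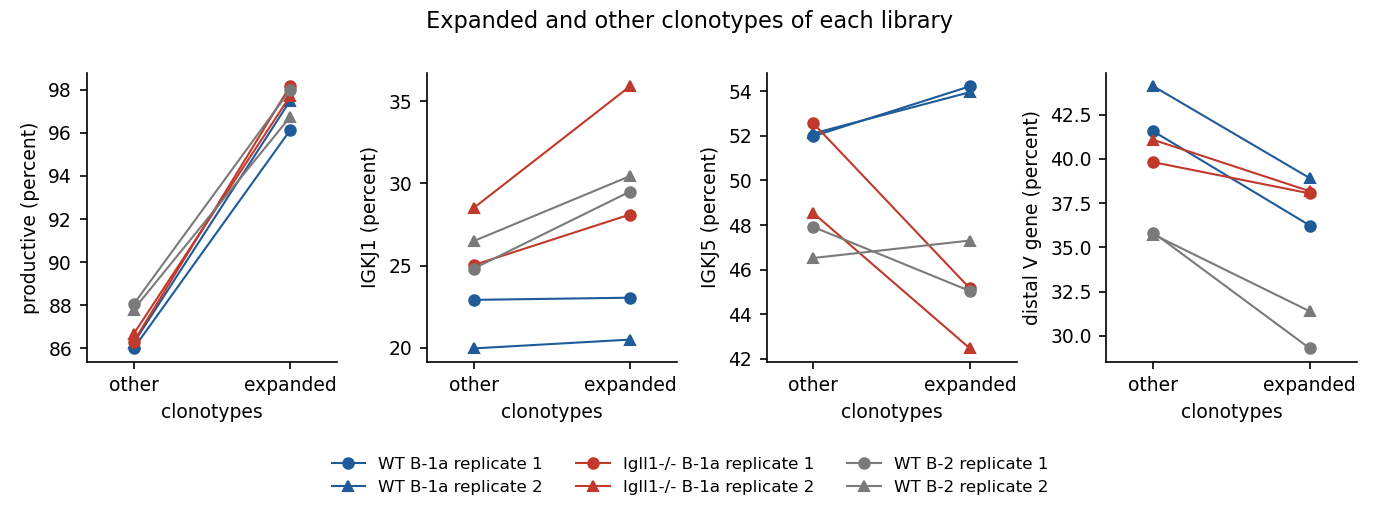
Percent of clonotypes that are productive, on IGKJ1, on IGKJ5 or on a distal V gene, for other and expanded clonotypes, with 1 line per library; the vertical axes do not start at 0. The productive share rises and the distal share falls along each of the 6 lines, while IGKJ5 rises in both WT B-1a libraries and falls in both Igll1-/- B-1a libraries.

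Among 64 V genes, edgeR with library as a block called 1, or 1.56%, between expanded and other clonotypes, and it was IGKV9-128. It made up 1.29% and 1.43% of expanded clonotypes in WT B-1a libraries against 3.71% and 4.52% of the others. In WT B-2 libraries the values were 0.895% and 1.17% against 1.56% and 1.70%, and in Igll1-/- B-1a libraries 0% and 0.383% against 0.711% and 0.898%. The log2 difference was -1.23 (SE 0.34, adjusted p = 0.00218 by edgeR). DESeq2 did not call it (adjusted p = 0.0598), nor did edgeR at a minimum of 200 reads (adjusted p = 0.0904). Against other clonotypes of 10 to 99 reads the difference was -0.63 (adjusted p = 0.431 by edgeR), and IGKV8-21, higher among expanded clonotypes, was the V gene called. The call was also lost without WT B-1a replicate 1 (lowest adjusted p = 0.0553 by edgeR) or replicate 2 (0.0930). The gene was not tested among productive clonotypes alone, where edgeR called IGKV9-120 instead, higher among expanded clonotypes (adjusted p = 2.88e-05). In WT B-1a libraries the largest IGKV9-128 clonotypes held 5554 and 6966 reads, beside 257 and 302 other clonotypes on the gene. Whether these others were altered copies of the large clonotypes was not tested.

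The expanded clonotypes of the 6 libraries came to 720 distinct combinations of V gene, J gene and CDR3. Entries of a library that agreed in all of these were joined here and in the read shares of the largest clonotypes. The 309 expanded entries of WT B-1a replicate 1, for example, gave 308 combinations. Of the 720, 101, or 14.0%, were expanded in all 6 libraries, and they held 48.5% to 66.7% of the reads of a library. Another 287 were expanded in 1 library and held 2.02% to 8.55% of its reads. Most of the 720 were not restricted to the library that expanded them, as 403 were listed in all 6 at some read count and 39 were listed in no other. The Igll1-/- B-1a libraries had the highest share expanded in that library alone, 20.3% and 23.4%, against 10.4% and 7.89% in WT B-1a and 16.1% and 13.1% in WT B-2 libraries.

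Clonotypes expanded in all 6 libraries had features in common, but the number of libraries rests on the read minimum, so these may follow the read count. In 82.2% of them CDR3 ended in the germline residues of the J gene, against 57.6% of those expanded in 2 to 5 libraries and 59.6% of those expanded in 1. They had 9 amino acids in 89.1%, against 74.4% and 46.7%. None of the 101 was listed as unproductive in every library that expanded it, against 2.11% and 6.97%, and 99 of the 101 were productive in all 6. Being unproductive in every such library is a harder condition with more libraries. The 101 lay on 40 V genes.

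Replicates shared expanded clonotypes to different degrees. WT B-1a replicates shared 214, which were 69.5% and 76.7% of each library's own, and WT B-2 replicates shared 336, or 75.3% and 78.3%. Igll1-/- B-1a replicates shared 124, or 57.1% and 47.5%. As a share of the union of both lists this was 57.4%, 62.3% and 35.0%. WT B-1a and WT B-2 libraries shared 44.1% to 48.4%, WT B-1a and Igll1-/- B-1a 36.0% to 38.8%, and Igll1-/- B-1a and WT B-2 31.0% to 35.6%. Both knockout libraries thus shared more with each WT B-1a library than with each other. Read as a share of each list, 69.0% to 72.8% of the expanded clonotypes of an Igll1-/- B-1a library were also expanded in a WT B-2 library, and 57.9% to 64.1% in a WT B-1a library. In reverse, they were 35.4% to 42.2% of the WT B-2 and 45.1% to 54.1% of the WT B-1a clonotypes. The WT B-2 lists were the longest, so more clonotypes could be met there. Of WT B-1a clonotypes, 76.0% to 82.8% were expanded in a WT B-2 library, and 49.8% to 55.9% of WT B-2 clonotypes in a WT B-1a library. Replicate pairs shared 51.6% on average and other pairs 39.1%, a difference of 12.5 points (one-sided exact permutation test over 15 pairings, p = 0.0667, the smallest possible). When a listing at any read count in the other library sufficed, the averages were 92.1% and 89.1% of expanded clonotypes.

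**Figure D5:**
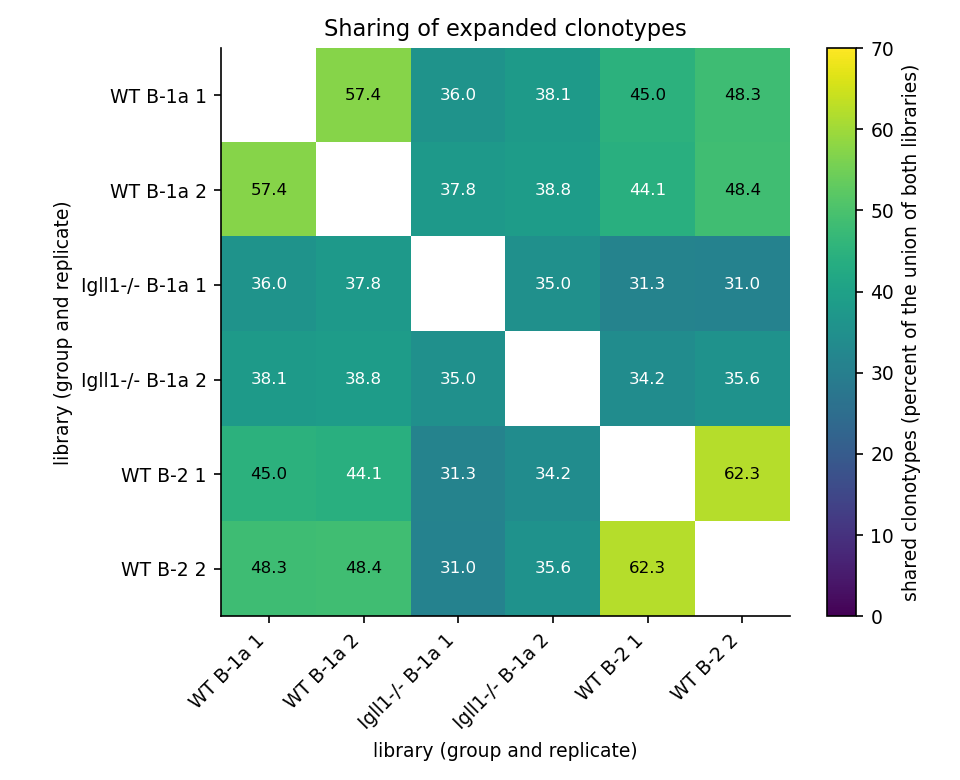
Shared expanded clonotypes as a percent of the union of 2 libraries, for each pair of the 6 libraries, on a colour scale from 0 to 70. WT B-2 replicates share 62.3% and WT B-1a replicates 57.4%, while the row of each Igll1-/- B-1a library stays between 31.0% and 38.8%.

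Expanded clonotypes particular to 1 group were most numerous in WT B-2 cells. Of the 336 clonotypes expanded in both WT B-2 libraries, 66 were expanded in none of the other 4. For WT B-1a cells these were 9 of 214, and for Igll1-/- B-1a cells 3 of 124. With fewer than 10 reads in each of the other 4 libraries, they were 6, 3 and 0. The same minimum of 100 reads met depths of 214000 to 288396 reads, and these counts were not corrected for depth. The 3 of WT B-1a were LQHGEGPYT and LRHGESPYT on IGKV14-126, each 1 residue from LQHGESPYT, and KQSYKLT on IGKV8-21, with 114 and 130 reads and 0 in the other libraries. The 6 of WT B-2 were QQYSSYPT on IGKV6-23, MQSMEELT on IGKV3-9, QQWSSYPPLT on IGKV4-55, KQAYDVPRT on IGKV12-38, LQYDEFPT on IGKV14-111 and QQYWSTYT, listed on IGKV13-84 or IGKV13-85, with 100 to 361 reads. None was expanded in all 4 B-1a libraries and in no B-2 library. In both WT groups but neither Igll1-/- B-1a library 35 were expanded, and 4 in Igll1-/- B-1a and WT B-2 but not WT B-1a libraries.

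Large differences seen in replicate 1 were looked for in replicate 2, and the reverse, since the second library had no part in choosing the clonotype. Of 124 and 103 clonotypes expanded in a WT B-1a library with at least 10 times the read share of the Igll1-/- B-1a library of the same number, 81 and 80 were again higher in the other pair. Of 63 and 69 chosen the other way, from Igll1-/- B-1a over WT B-1a cells, 21 and 25 were again higher, and 27 and 25 were lower. Against WT B-2 cells, 20 of 49 and 16 of 51 clonotypes chosen for Igll1-/- B-1a were again higher, while 144 of 185 and 154 of 190 chosen for WT B-2 were. Between WT B-1a and WT B-2 cells the counts were 22 of 48 and 20 of 31 for WT B-1a, and 49 of 82 and 51 of 74 for WT B-2. Against WT B-2 cells, 14 and 27 of those chosen for Igll1-/- B-1a were lower. Of those chosen for Igll1-/- B-1a, 15 and 19 against WT B-1a and 15 and 8 against WT B-2 cells were listed in neither library of the other pair. Such clonotypes could be neither higher nor lower. Among the listed ones, neither direction led in all 4 comparisons of Igll1-/- B-1a cells. No share over all expanded clonotypes was set beside these counts, so they are not read as a difference between groups. The pairs carry the same number only as a name, and these counts were given no test.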

How the data were processed

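Peritoneal B-1a and B-2 cells were sorted, rearranged Igk loci were amplified from genomic DNA, and products of 100 to 280 bp were sequenced. The authors assigned reads with IMGT/HighV-QUEST, whose version is not given in the sources used here, and deposited 1 table per library with a count of reads per clonotype and the percent identity of a representative read to its germline V gene. The labels name a MiSeq and the methods a HiSeq. From these tables, clonotypes of at least 100 reads were taken as expanded, and numbers per V gene were compared with edgeR 4.0.16 (all 6 libraries in 1 fit, total expanded clonotypes as library size, V genes with 10 or more) and DESeq2 1.42.0, in R 4.3.3. The edgeR fits were first run on simulated data. The changes planted there were larger than the log2 differences given here for V genes, so the simulation does not show that differences of this size would be found. SEs were not allowed below the counting error. Exact permutation tests and shares used Python 3.11.15 and scipy 1.17.1. The members and lists were chosen with earlier results of these data known. V genes were named by adjusted p under 0.05 or from a list of 7; clonotypes by read rank per library, expansion in all 6, group restriction or nearness to 100 reads; others in the text were chosen after their values were seen. Replicates differed by more than sampling noise (chi-square per degree of freedom 38.8 to 206). Alternatives were another read minimum, filter, normalization, tool, weight or set of libraries. Other assays were not used.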

Additional observations from a re-analysis of the deposited data

Results flagged for a closer look

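The difference between expanded and other clonotypes went opposite ways in some groups, and these results are given because both libraries of 1 group moved one way and both of another the other way. The share of IGKJ5 was higher among expanded clonotypes by 2.04 percentage points in WT B-1a cells and changed by -6.73 points in Igll1-/- B-1a cells. The share of proximal V genes was higher by 0.776 points in WT B-1a cells and changed by -1.43 points in WT B-2 cells. Neither difference between groups was tested.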

How the results depend on the processing

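Depth was 214000 to 288396 reads per library and limits rare classes such as IGKJ4, while with 2 libraries per group no difference in a share between groups could pass an exact test. The number of V genes called depended on these choices. Between Igll1-/- and WT B-1a cells, edgeR called 0 V genes, against 1 at a minimum of 50 reads (IGKV14-126) and 9 with reads summed per V gene. The 9 were IGKV1-110, IGKV14-126, IGKV15-103, IGKV3-4, IGKV3-7, IGKV3-9, IGKV4-52, IGKV4-91 and IGKV5-39. Between Igll1-/- B-1a and WT B-2 cells the count of 0 became 2 by DESeq2, 2 with no filter and 5 with reads summed, and ranged from 0 to 1 without 1 library, the 1 being IGKV3-7 without Igll1-/- B-1a replicate 1. Between WT B-1a and WT B-2 cells the count of 1 became 2 at 50 reads, 0 at 200 reads, 0 at a minimum of 0.05% of reads, 0 without near-identical clonotypes and 2 with reads summed, and ranged from 0 to 1 without 1 library. Between expanded and other clonotypes the count of 1 became 9 with TMM factors, all lower among expanded clonotypes, 0 by DESeq2, 2 with no filter, 3 against others of 2 to 99 reads, 5 at 50 reads and 0 at 200 reads, and ranged from 0 to 2 without 1 library. With the replicate number as a block, 0, 2 and 1 V genes were called in the 3 comparisons. The numbers were not taken to pair the libraries, since the correlations of same-numbered deviations over 64 V genes were 0.03, 0.10 and 0.18. Single V genes changed direction in 5 cases. Without near-identical clonotypes IGKV1-110 went to -0.17 and IGKV3-7 to -0.013 on the log2 scale between Igll1-/- and WT B-1a cells. At 0.05% of reads IGKV14-126 went to 0.21 between Igll1-/- B-1a and WT B-2 cells, and with reads summed IGKV1-110 went to -0.33 and IGKV15-103 to -0.24 between WT B-1a and WT B-2 cells. The cause of these changes was not tested.

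For expanded minus other clonotypes, the exact test over 5 libraries cannot pass, so a range without 1 library tells of the value only. The ranges were 10.3 to 10.8 percentage points for the productive share, 2.48 to 3.93 for IGKJ1, -1.35 to 0.341 for IGKJ2, -0.894 to -0.730 for IGKJ4, -0.713 to -0.572 residues for length, 6.49 to 6.59 points for identity, -0.316 to 0.471 for proximal, 3.43 to 4.94 for middle and -4.85 to -3.90 for distal V genes, and 6.09 to 7.21 for the germline J ending. At a minimum of 200 reads the values were 11.4 for the productive share, 0.585 for IGKJ1, -0.853 for IGKJ4, 1.61 for IGKJ5, -0.664 residues for length, 6.53 for identity, -0.193 for proximal, 2.66 for middle and -2.47 for distal V genes and 11.1 for the J ending. At 50 reads they were 1.32 for IGKJ2, -0.587 for IGKJ4, -5.28 for IGKJ5, -3.66 for 9 amino acids and -0.616 for proximal V genes. Against others of 2 to 99 reads they were 7.38 for the productive share, 4.20 for IGKJ1, -1.05 for IGKJ4, -0.0508 residues for length, 4.37 for identity, 3.87 for middle and -4.33 for distal V genes and 5.02 for the J ending. Against others of 10 to 99 reads they were 4.04, -3.61, -1.04, -0.0577, 1.73, 1.74, -3.06 and 4.98 in the same order, with 8.10 for IGKJ5. Weighted by reads they were -10.8 for IGKJ1, -7.12 for IGKJ2, 19.3 for IGKJ5, 20.4 for 9 amino acids, -3.72 for middle and 2.91 for distal V genes.

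The number of expanded clonotypes and their read share follow the minimum. WT B-1a cells had 468.5 with 90.7% of reads at 50 reads and 190 with 80.4% at 200 reads, and 84.1% of reads at 0.05%. Igll1-/- B-1a cells had 91.4% of reads at 50 reads and 158 with 83.4% at 200 reads. WT B-2 cells had 89.4% at 50 reads, 270.5 with 75.9% at 200 reads and 80.4% at 0.05%. Without near-identical clonotypes the read shares were 83.8%, 85.7% and 81.6%. Small differences in shares between groups changed sign. Between Igll1-/- and WT B-1a cells IGKJ2 went to 3.66 points at 200 reads and ranged from -2.94 to 1.55 without 1 library, and length went to -0.0309 residues at 200 reads and -0.00136 weighted by reads, and ranged from -0.00325 to 0.0243. Between Igll1-/- B-1a and WT B-2 cells IGKJ1 went to -0.442 and IGKJ5 to 2.10 at 50 reads, and IGKJ2 to 0.324 and length to -0.0355 at 200 reads. Without 1 library IGKJ1 ranged from -1.86 to 5.93, IGKJ2 from -3.00 to 1.496 and the productive share from -0.0534 to 1.20. Between WT B-1a and WT B-2 cells IGKJ2 went to 0.0230 at 50 reads and 3.33 weighted by reads, and length to -0.0139 at 50 and -0.00459 at 200 reads. Without 1 library the productive share ranged from -1.25 to 0.129 and IGKJ2 from -1.66 to 1.54.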
